A study of Mus musculus with 18 samples.

Results

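The 10 genes described here are the transcription factor gene Nfe2l2, which encodes NRF2, its negative regulator Keap1, and 8 antioxidant and detoxification genes that NRF2 is known to activate: Hmox1, Srxn1, Txnrd1, Slc7a11, Gclc, Gclm, Gsr and Nqo1. They were chosen by name from the pathway and are 10 of the 47643 genes in the count tables. All 10 passed the filter on low counts. They were followed over the whole course of axon injury in sensory neurons, in 18 RNA sequencing libraries.

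The cultures were spot cultures of dorsal root ganglia taken from CD-1 mice at e13.5 (eDRG spot cultures). Every culture, control included, was grown with the mitotic inhibitor 5-fluorodeoxyuridine (FDU). Control cultures were collected uninjured at day in vitro 7 (DIV7). In the other cultures a blade was used to cut the axons, and RNA was taken 1, 3, 8, 16 or 24 h post-injury (HPI), with 3 libraries in each of the 6 groups. The paper cut the axons at DIV7, and the labels give DIV7 for every library. Whether injured cultures were up to 24 h older than control when collected is not settled. If they were, culture age and time after injury cannot be told apart. Injury in a dish leaves out the glial, immune and vascular cells that surround a ganglion in the animal, and the cells were embryonic. The labels number the replicates 1 to 3 in every group but do not say whether they came from separate animals or cultures, so the p-values measure the spread between these libraries. All comparisons with control share the same 3 control libraries.

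In unstressed cells, KEAP1 binds NRF2 and brings it to a CUL3 ubiquitin ligase, and NRF2 is broken down. Oxidants and electrophiles modify KEAP1, NRF2 accumulates, and it pairs with small MAF proteins on antioxidant response elements (AREs) in its target genes. Much of the pathway is therefore controlled at the protein level, which RNA sequencing does not measure. Neurons are known to have low NRF2 activity compared with astrocytes, and to depend on glutathione and thioredoxin for peroxide removal.

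Libraries held 9478891 to 23082327 counts on genes. Among sensory neuron markers, each library held 27243 to 71924 counts of Tubb3, 40386 to 95737 of Prph and 7307 to 18252 of Avil. The 8 satellite glia and Schwann cell markers summed to 1.70 to 11.6 CPM (counts relative to library size, here scaled by TMM), the 6 fibroblast markers to 1.22 to 19.6 CPM, the 5 endothelial markers to 0.868 to 2.01 CPM and the 8 myeloid markers to 5.46 to 9.11 CPM. In these bulk libraries, fewer cells of a type and less RNA per cell cannot be told apart.

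Differences were tested for 13771 genes with edgeR's quasi-likelihood test, adjusted over all of them by the Benjamini-Hochberg method, in a model with terms for time point and replicate number. A gene was called at an adjusted p under 0.05, and calls with over 2-fold change are given beside these. Of the neuron markers named above, Tubb3 was called lower than control at 16 and 24 HPI (log2 fold change -0.40 and -0.37). Prph and Avil were called in no comparison. At 24 HPI, calls among the listed sensory neuron markers went in both directions. Log2 fold changes are followed by their standard error (SE).

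At 1 and 3 HPI none of the 10 genes was called. The test was able to call genes at these times, but few of all genes passed: 0.0944% rose and 0.182% fell at 1 HPI, and 0.0436% rose and 0.145% fell at 3 HPI, with 0.029% over 2-fold at either time. The unadjusted p was under 0.05 for 1 of the 10 at 1 HPI, Gsr, and for 3 of the 10 at 3 HPI, Gsr, Gclc and Txnrd1, with log2 fold changes between 0.12 and 0.18. The shares of all genes above are for the adjusted p and cannot be set beside these counts. The share of all genes with an unadjusted p under 0.05 is not given here, so no early change is read from them. The DESeq2 Wald test called none of the 10 at these times either. At 8 HPI, Hmox1 and Txnrd1 rose and none of the 10 fell. Of all genes, 3.78% rose, 3.9% fell and 0.537% were called over 2-fold, which among the 10 held for Hmox1.

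At 16 HPI, 4 of the 10 rose, namely Hmox1, Srxn1, Txnrd1 and Gclc, none fell, and none passed 2-fold. Of all genes, 10.7% rose, 11.5% fell and 1.49% were called over 2-fold. At 24 HPI, Srxn1 rose, Slc7a11 fell and none passed 2-fold, beside 5.99% of all genes higher, 9.03% lower and 0.821% over 2-fold. The median log2 fold change of the 10 genes against control, from the first to the last time, was 0.07, 0.09, 0.20, 0.15 and -0.01, and that of all tested genes was 0.0 at every time.

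Neighbouring late time points were also compared with each other. From 8 to 16 HPI, Srxn1 and Txnrd1 rose and Slc7a11 fell, beside 7.3% of all genes higher, 7.86% lower and 0.937% over 2-fold. From 16 to 24 HPI, 5 of the 10 fell, namely Hmox1, Nfe2l2, Txnrd1, Slc7a11 and Gclc, and none rose. Of all genes, 3.59% rose, 6.22% fell and 0.508% were called over 2-fold in that step, which among the 10 held for Hmox1. A test for any difference among the 6 groups called 7 of the 10, all but Keap1, Gclm and Nqo1, and 30% of all genes.

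**Figure D1:**
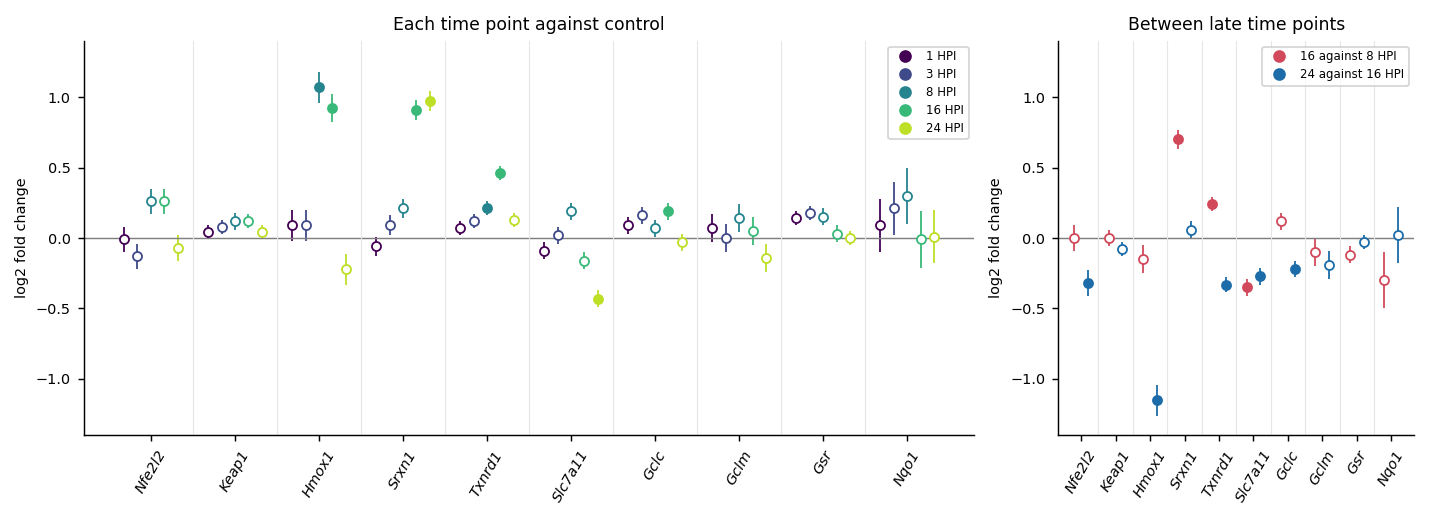
Log2 fold change of each of the 10 genes (vertical axis, log2 scale) at 1, 3, 8, 16 and 24 HPI against control (left) and between neighbouring late time points (right). Points are estimates, bars are the SE, and filled points have an adjusted p under 0.05. Hmox1 stands at 1.07 and 0.92 at 8 and 16 HPI and is below zero at 24 HPI, whereas Srxn1 stands at 0.91 and 0.97 at 16 and 24 HPI.

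Reference promoter windows were searched for 3 motifs on both strands. They were the ARE core, TGACNNNGC, bound by NRF2 with small MAF proteins, the AP-1 site, TGACTCA, bound by JUN and FOS family dimers, and the C/EBP-ATF response element (CARE), TGATGNAAN, bound by ATF4. An AP-1 site can overlap an ARE core. The windows, from RefSeq on GRCm38.p6, run from 250 bases before to 50 bases after an annotated start. Of the 10 genes, 7 had windows, 9 in all, and Hmox1, Gclc and Gsr had none.

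The ARE core was found in 4 of the 9 windows, those of Nfe2l2, Gclm, Srxn1 and the second start of Txnrd1, and in 12.4% of the 32851 windows of all genes. The AP-1 site was found in the Srxn1 window alone among the 9, in 2 copies. It was present in 5.2% of all windows and in 2 or more copies in 0.222%. CARE was found in the Slc7a11 window alone among the 9, again in 2 copies, and in 3.95% of all windows, with 2 or more copies in 0.07%. The windows of Keap1, Nqo1 and the other starts of Txnrd1 held none of the 3 motifs. Bases outside the windows were not searched, so a window without a match does not show that the gene lacks the motif. A match describes the letters of the window and not binding.

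**Figure D2:**
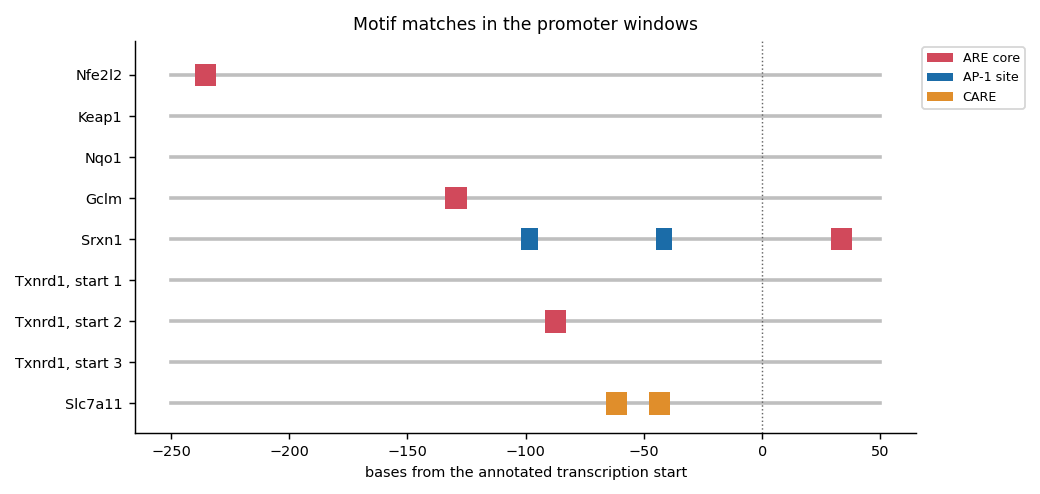
Motif matches in the 9 promoter windows, by distance in bases from the annotated transcription start (horizontal axis, dotted line at the start), with 1 grey line per window. Coloured blocks mark ARE cores, AP-1 sites and CARE matches at their width, on either strand, and the paired AP-1 sites of Srxn1 and paired CARE matches of Slc7a11 lie within 102 bases before the start.

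Levels in control were compared per length of merged exons, as RPKM (TMM-scaled reads per kilobase, relative to library size). Gsr, which returns oxidised glutathione to its reduced form, had the highest level at 38.5 ± 5.34 RPKM (mean ± SD, n = 3), followed by Srxn1 at 33.0 ± 2.73 RPKM, and these overlapped. Txnrd1 was lower than both at 14.9 ± 0.639 RPKM. Hmox1 at 12.1 ± 3.16 RPKM, Gclm at 9.95 ± 0.848 RPKM, Gclc at 9.37 ± 0.109 RPKM, Nfe2l2 at 9.21 ± 1.10 RPKM, Keap1 at 9.19 ± 0.546 RPKM and Slc7a11 at 9.17 ± 3.30 RPKM formed a group in which each overlapped the next.

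Nqo1, a quinone reductase widely used as a readout of NRF2, was the lowest at 2.25 ± 0.713 RPKM, with 49 to 70 counts in the control libraries, and did not overlap any of the others. Per length of the longest transcript, the first 3 ranks and the last were the same, Txnrd1 reached 29.2 RPKM, and the 6 genes between them changed places. The catalytic and modifier subunits of glutamate-cysteine ligase, Gclc and Gclm, had levels per length that differed by less than the spread between libraries.

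**Figure D3:**
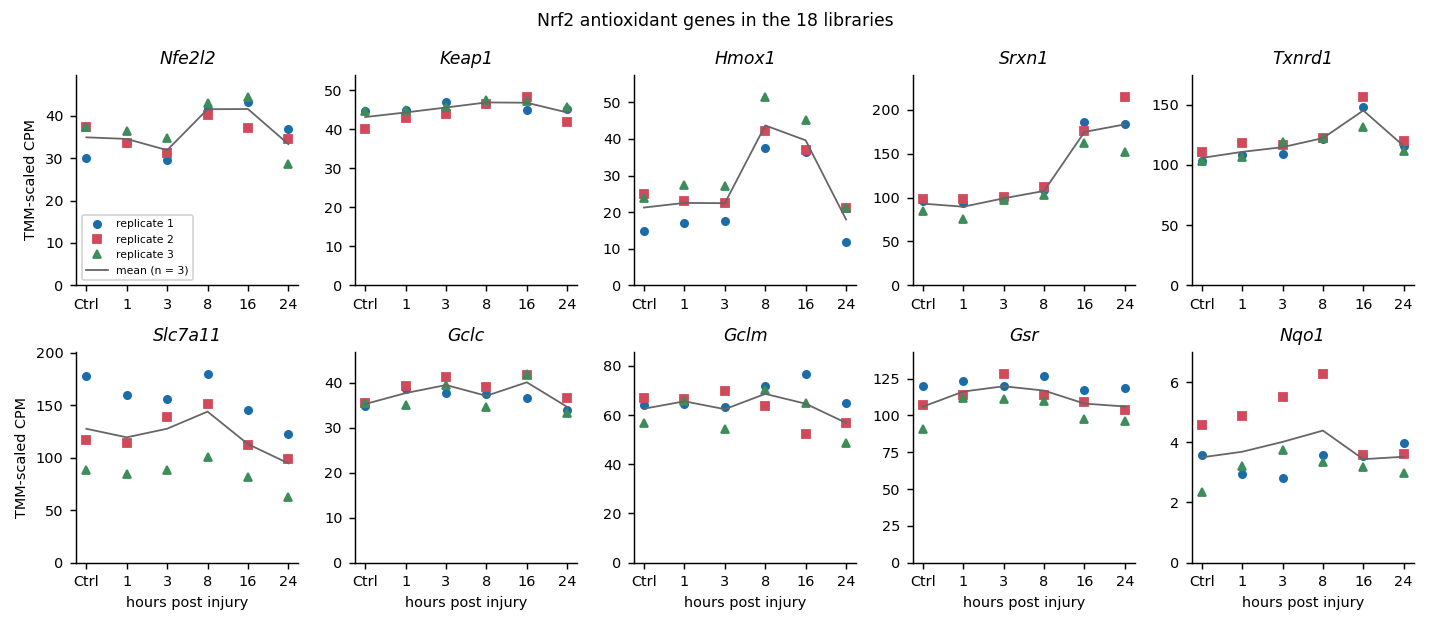
Level of each of the 10 genes in the 18 libraries, as TMM-scaled CPM (vertical axes, linear and starting at 0) in control (Ctrl) and at 1, 3, 8, 16 and 24 HPI. Symbols are single libraries by replicate number and the line joins the group means (n = 3). Hmox1 is high at 8 and 16 HPI in all 3 replicates, Srxn1 is high at 16 and 24 HPI, and Slc7a11 differs more between replicate numbers than between times.

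Nfe2l2 (chr2:75675513-75704641, minus strand, GRCm38) was not called against control at any time, and fell between 16 and 24 HPI. The control libraries gave 30.1, 37.3 and 37.4 CPM for replicates 1 to 3, those at 1 HPI 33.6, 33.7 and 36.5 CPM and those at 3 HPI 29.6, 31.3 and 34.8 CPM. The level was 41.5, 40.2 and 43.0 CPM at 8 HPI, 43.3, 37.1 and 44.4 CPM at 16 HPI and 36.8, 34.5 and 28.7 CPM at 24 HPI.

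All 3 libraries at 8 HPI were above all control libraries, and those at 16 HPI overlapped control. The log2 fold change against control was 0.26 ± 0.09 (SE) at 8 HPI and again 0.26 ± 0.09 at 16 HPI, and neither was called by edgeR's quasi-likelihood test (adjusted p = 0.106 and 0.0534). The value at 16 HPI was called in 5 of 14 alternative settings, among them without Control replicate 2 and without 16HPI replicate 2, and was 0.16 without Control replicate 1. From 16 to 24 HPI Nfe2l2 fell by 0.32 on the log2 scale (SE 0.09, adjusted p = 0.0299), lower in 3 of 3 replicates. That call was lost without 16HPI replicate 1, 16HPI replicate 3 or 24HPI replicate 3, with a value of -0.18 in the last case.

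The Nfe2l2 promoter window held an ARE core 240 bases before the start, shown because NRF2 is known to act on its own gene. The 30 bases at chr2:75704884-75704913 (GRCm38.p6, minus strand) are printed 5′ to 3′ with the match in capitals.
Nfe2l2: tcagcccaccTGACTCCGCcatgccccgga

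Keap1 (chr9:21229730-21239361, minus strand) encodes the adaptor that holds NRF2 for degradation, and was not called in any comparison. Over all 18 libraries it lay between 40.2 and 48.3 CPM. Against control its log2 fold change was between 0.04 and 0.12 at the 5 times, with SE of 0.05 to 0.06, and none was called. Of its exon bases, 10.9% overlap Gm16754 on the opposite strand. The strand setting of the counting is not stated, so reads of the pair there cannot be told apart.

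Hmox1 (chr8:75093621-75100589, plus strand) encodes heme oxygenase 1, the inducible enzyme that breaks heme down to biliverdin, iron and carbon monoxide. Its RNA rose in the middle of the course and was no longer above control at 24 HPI. Replicates 1 to 3 gave 14.9, 25.0 and 23.9 CPM in control, 17.0, 23.1 and 27.4 CPM at 1 HPI and 17.6, 22.6 and 27.1 CPM at 3 HPI. The level was 37.5, 42.2 and 51.4 CPM at 8 HPI, 36.5, 37.1 and 45.2 CPM at 16 HPI and 11.8, 21.2 and 21.1 CPM at 24 HPI.

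Every library at 8 and 16 HPI was above every library of the other 4 groups. Hmox1 was 2.10-fold higher at 8 HPI (log2 fold change 1.07 ± 0.11, adjusted p = 2.02e-06 by edgeR's quasi-likelihood test) and 1.90-fold higher at 16 HPI (0.92 ± 0.10, adjusted p = 2.6e-06), each in 3 of 3 replicates. The difference between 8 and 16 HPI was not called (log2 -0.15 ± 0.10, adjusted p = 0.353). From 16 to 24 HPI Hmox1 fell by 1.15 on the log2 scale (SE 0.11, adjusted p = 1.53e-06), in 3 of 3 replicates by 0.81 to 1.63.

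Replicate 1 had the lowest Hmox1 level in all 6 groups. Without Control replicate 1 the log2 fold change at 8 HPI was 0.99 and no longer over 2-fold, though still called. Without the replicate block it was 1.04 and was not called. At 16 HPI and from 16 to 24 HPI the call was made in 14 of 14 alternatives, and without Control replicate 2 or 16HPI replicate 2 Hmox1 also passed 2-fold at 16 HPI, at up to 1.03.

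Hmox1 is strongly expressed by macrophages. The 8 myeloid markers summed to 5.46 to 7.98 CPM in control, 6.91 to 8.69 CPM at 8 HPI, 6.75 to 7.59 CPM at 16 HPI and 7.95 to 9.11 CPM at 24 HPI. Of the 3 myeloid markers with enough counts to test, Cd68 was higher at 16 and 24 HPI, C1qb was lower at 16 than at 8 HPI, Aif1 was called in no comparison, and none was called at 8 HPI against control. Itgam had at most 1 count in any library. Their part in the Hmox1 result was not tested.

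Srxn1 (chr2:152105516-152111376, plus strand) encodes sulfiredoxin, which restores peroxiredoxins that have been over-oxidised by peroxide. It had the lowest adjusted p of the 10 in the test over all groups (1.78e-10), and it rose late and was still high at 24 HPI. Replicates 1 to 3 gave 96.3, 98.7 and 84.3 CPM in control, 94.2, 98.9 and 75.7 CPM at 1 HPI and 99.9, 100.6 and 97.1 CPM at 3 HPI. The level was 108, 112 and 103 CPM at 8 HPI, 186, 176 and 163 CPM at 16 HPI and 184, 215 and 152 CPM at 24 HPI.

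All 6 libraries at 16 and 24 HPI were above all 12 others. Srxn1 was 1.88-fold higher at 16 HPI (log2 fold change 0.91 ± 0.07, adjusted p = 1.45e-08 by edgeR's quasi-likelihood test) and 1.96-fold higher at 24 HPI (0.97 ± 0.07, adjusted p = 1.55e-08), each in 3 of 3 replicates. The libraries at 8 HPI were also all above control, by 0.21 ± 0.07 on the log2 scale, which was not called (adjusted p = 0.0565). Between 8 and 16 HPI Srxn1 rose by 0.70 ± 0.07 (adjusted p = 1.67e-06), and between 16 and 24 HPI the difference was 0.06 ± 0.06 (adjusted p = 0.62).

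The calls at 16 HPI, at 24 HPI and from 8 to 16 HPI were each made in 14 of 14 alternatives, with log2 fold changes at 24 HPI between 0.88 and 1.04. Without 24HPI replicate 3 it passed 2-fold at 24 HPI. Replicate 3 had the lowest Srxn1 level in all 6 groups. Dcn (3 to 71 counts in any library), 1 of 4 tested fibroblast markers, and Cd68 (10 to 49 counts), 1 of 3 tested myeloid markers, were called higher at the same 2 times as Srxn1, though Cd68 was lost without 16HPI replicate 3 in the first case and without Control replicate 2 or 3 or 24HPI replicate 2 in the second, and at both times without the replicate block and at 24 HPI with the DESeq2 Wald test. The other 3 fibroblast markers and 2 myeloid markers were not called against control. The 6 fibroblast markers summed to 2.58 to 9.68 CPM in control, 4.53 to 14.7 CPM at 16 HPI and 3.69 to 15.1 CPM at 24 HPI, and the part of these markers in the Srxn1 result was not tested.

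The 250 bases before the Srxn1 start, at chr2:152105274-152105523 (GRCm38.p6, plus strand), are shown because of the paired AP-1 sites. Capitals mark both, which read as TGAGTCA on this strand and begin 102 and 45 bases before the start. The ARE core as searched, TGACNNNGC, lies 29 bases after the start in this window and is not printed. The AP-1 site 45 bases before the start is followed by gc, giving TGAGTCAGC, which has G where the searched core has C. ARE forms with G at that place were not searched for, so this site was not counted as an ARE.
Srxn1: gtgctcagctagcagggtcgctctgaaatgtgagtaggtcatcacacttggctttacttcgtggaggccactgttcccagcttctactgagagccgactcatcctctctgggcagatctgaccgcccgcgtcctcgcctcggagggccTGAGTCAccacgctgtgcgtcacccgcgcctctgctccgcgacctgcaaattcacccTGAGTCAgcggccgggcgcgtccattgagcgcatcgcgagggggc

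Txnrd1 (chr10:82833951-82897712, plus strand) encodes the cytosolic thioredoxin reductase, which uses NADPH to keep thioredoxin reduced. It rose to a peak at 16 HPI. Replicates 1 to 3 gave 103, 111 and 103 CPM in control, 108, 118 and 106 CPM at 1 HPI and 109, 117 and 119 CPM at 3 HPI. The level was 122, 123 and 123 CPM at 8 HPI, 148, 156 and 131 CPM at 16 HPI and 115, 120.2 and 112 CPM at 24 HPI.

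All 3 libraries at 16 HPI were above the 15 others. Txnrd1 was 1.37-fold higher than control at 16 HPI (log2 fold change 0.46 ± 0.05, adjusted p = 2.01e-06 by edgeR's quasi-likelihood test), higher in 3 of 3 replicates and called in 14 of 14 alternatives. It rose by 0.24 ± 0.05 from 8 to 16 HPI (adjusted p = 0.00252) and fell by 0.33 on the log2 scale from 16 to 24 HPI (SE 0.05, adjusted p = 0.000252). At 24 HPI it was not called against control (0.13 ± 0.05, adjusted p = 0.0925).

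The smaller difference at 8 HPI, 0.21 ± 0.05 (adjusted p = 0.0142), was called in 8 of 14 alternatives. It was lost when Control replicate 1 or 3, or 8HPI replicate 1 or 3, was left out, without the replicate block and with the compared groups alone, at values of 0.18 to 0.21. The rise from 8 to 16 HPI was lost without the replicate block.

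Of 3 annotated Txnrd1 starts, the second held an ARE core 92 bases before it, and the match extends to the form with A after the core, which 3.04% of all windows hold. The 250 bases before that start, at chr10:82858956-82859205 (GRCm38.p6, plus strand), are shown with the core in capitals. It is read on the opposite strand.
Txnrd1: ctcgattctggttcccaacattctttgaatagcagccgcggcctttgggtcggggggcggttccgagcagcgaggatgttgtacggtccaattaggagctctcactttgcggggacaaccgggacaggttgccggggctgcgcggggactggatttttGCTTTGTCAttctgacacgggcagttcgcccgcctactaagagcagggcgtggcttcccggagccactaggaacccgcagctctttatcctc

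Slc7a11 (chr3:49892526-50443614, minus strand) encodes xCT, the transport chain of system xc-, which takes up cystine for glutathione synthesis in exchange for glutamate. It was lower than control at 24 HPI. Replicates 1 to 3 gave 178, 117 and 88.3 CPM in control, 160.1, 114 and 84.5 CPM at 1 HPI and 156, 139 and 88.0 CPM at 3 HPI. The level was 179.6, 152 and 101 CPM at 8 HPI, 146, 112 and 81.3 CPM at 16 HPI and 123, 98.7 and 62.5 CPM at 24 HPI.

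The groups overlapped at every time, and in all 6 groups replicate 1 was the highest and replicate 3 the lowest. Within each replicate number the 24 HPI library was below its control, by 0.53, 0.24 and 0.50 on the log2 scale. The model put Slc7a11 at 0.743-fold of control at 24 HPI (log2 fold change -0.43 ± 0.06, adjusted p = 0.0001 by edgeR's quasi-likelihood test). It fell by 0.35 from 8 to 16 HPI (SE 0.06, adjusted p = 0.000772) and by 0.27 from 16 to 24 HPI (SE 0.06, adjusted p = 0.00907).

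At 8 HPI its log2 fold change was 0.19 ± 0.06, not called (adjusted p = 0.0767), and was called at 0.26 without Control replicate 1. At 16 HPI it was -0.16 ± 0.06, not called (adjusted p = 0.0692), and was called at -0.23 without Control replicate 2. All 3 falls rest on comparing libraries of the same replicate number and were not called without the replicate block. The fall from 16 to 24 HPI was also lost without 24HPI replicate 3, at -0.23. Slc3a2, the chain that pairs with xCT at the cell surface, fell at 24 HPI as well, by 0.19 on the log2 scale (SE 0.05, adjusted p = 0.0183). Its groups overlapped, and the call was lost when Control replicate 3 or 24HPI replicate 1 or 3 was left out, at -0.14 to -0.24, and without the replicate block.

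ATF4, the transcription factor of the integrated stress response, also activates Slc7a11. Of 6 genes listed for comparison (Atf4 and its targets Ddit3, Asns, Chac1, Trib3 and Sesn2), 4 rose at 8 HPI, 2 rose at 16 HPI, 2 fell at 24 HPI and 5 fell between 16 and 24 HPI. Of all genes, 3.78% and 10.7% rose at the first 2 of these times, 9.03% fell at 24 HPI and 6.22% fell in the last step. Chac1, which degrades glutathione, rose by 0.62 ± 0.06 at 8 HPI (adjusted p = 2.7e-06 by edgeR's quasi-likelihood test) and fell by 0.29 at 24 HPI (SE 0.07, adjusted p = 0.00486). Chac1 was called in 13 of 14 alternatives at either time, all but that without the replicate block. The rise of Atf4 itself at 8 HPI, 0.21 ± 0.06 (adjusted p = 0.029), was lost without Control replicate 1 or 3 or any 1 of the 8 HPI libraries. Atf4 fell by 0.30 at 24 HPI (SE 0.06, adjusted p = 0.00113), called in 13 of 14 alternatives. Ddit3 rose by 1.06 ± 0.11 at 8 HPI and by 1.11 ± 0.11 at 16 HPI, called in 13 and 14 of 14. Sesn2 rose by 0.68 ± 0.09 and 0.46 ± 0.09 at these times, called in 13 of 14 at either. Asns, asparagine synthetase, was not called at any time.

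The 250 bases before the Slc7a11 start, at chr3:50443614-50443863 (GRCm38.p6, minus strand), are shown because of the paired CARE matches. The capitals mark them, the first on the gene's strand 66 bases before the start and the second on the opposite strand 48 bases before it.
Slc7a11: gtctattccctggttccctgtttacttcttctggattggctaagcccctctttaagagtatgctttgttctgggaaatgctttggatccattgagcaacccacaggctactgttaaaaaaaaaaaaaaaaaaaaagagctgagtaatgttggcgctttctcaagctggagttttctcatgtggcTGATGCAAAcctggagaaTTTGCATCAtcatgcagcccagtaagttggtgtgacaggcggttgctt

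Gclc (chr9:77754535-77794485, plus strand), the catalytic subunit that makes the first bond of glutathione, was called at 16 HPI but close to the threshold. Replicates 1 to 3 gave 34.8, 35.6 and 35.4 CPM in control, 36.7, 41.8 and 41.9 CPM at 16 HPI and 33.9, 36.7 and 33.3 CPM at 24 HPI. At 1, 3 and 8 HPI the libraries lay between 34.7 and 41.4 CPM.

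The libraries at 16 HPI were all above control. The difference of 0.19 ± 0.06 on the log2 scale was called (adjusted p = 0.0351 by edgeR's quasi-likelihood test), but in only 6 of 14 alternatives. It was lost without any 1 of the 3 control libraries (0.16 to 0.21), without 16HPI replicate 2 (0.19) and without 16HPI replicate 3 (0.13). The fall of 0.22 from 16 to 24 HPI (SE 0.06, adjusted p = 0.0282) was likewise called in 6 of 14, and was lost without 16HPI replicate 2 or 3 or 24HPI replicate 1 or 3, at -0.16 to -0.22.

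Gclm (chr3:122245557-122270732, plus strand), the modifier subunit of the same enzyme, lay between 48.8 and 76.6 CPM over the 18 libraries. Its log2 fold change against control was between -0.14 and 0.14 with an SE of 0.10, and none was called. The largest spread was within 16 HPI, at 76.6, 52.4 and 64.8 CPM. Of its exon bases, 4.7% overlap Gm17494 on the opposite strand and 3.9% overlap Gm6061 on the same strand, where reads could be assigned to either gene. Its window held an ARE core 134 bases before the start, on the opposite strand, shown in capitals within 30 bases at chr3:122245413-122245442 (GRCm38.p6, plus strand).
Gclm: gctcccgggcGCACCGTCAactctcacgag

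Gsr (chr8:33652523-33698163, plus strand), glutathione reductase, lay between 90.7 and 128 CPM. No comparison with control was called, and the largest was 0.18 ± 0.05 at 3 HPI (adjusted p = 0.126), which was called at 0.25 without 3HPI replicate 1. The test over all groups did call Gsr (adjusted p = 0.0255), with group means of 106 CPM in control, 120 CPM at 3 HPI and 106 CPM at 24 HPI. Replicate 3 was the lowest in all 6 groups.

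Nqo1 (chr8:107388225-107403206, minus strand) had the lowest level of the 10 and the largest SE. Replicates 1 to 3 gave 3.56, 4.57 and 2.36 CPM in control, 3.57, 6.26 and 3.33 CPM at 8 HPI and 3.98, 3.60 and 2.97 CPM at 24 HPI. Its log2 fold changes lay between -0.01 and 0.30 with SE of 0.19 to 0.20, and none was called. Changes of the size measured for Txnrd1 at 8 HPI were about as large as this SE and could not have been resolved for Nqo1.

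The other genes of the pathway were taken from a list of 84 genes in 7 groups, of which 70 passed the filter. Against control, 8 rose and 2 fell at 8 HPI, 11 rose and 3 fell at 16 HPI, and 6 rose and 7 fell at 24 HPI. The shares of all tested genes at these times were 3.78% higher and 3.9% lower, 10.7% and 11.5%, and 5.99% and 9.03%. At 1 HPI 1 fell, the exporter gene Abcc5 (log2 fold change -0.28 ± 0.06, adjusted p = 0.0494 by edgeR's quasi-likelihood test), and at 3 HPI none was called. The median log2 fold change of the 70 was between -0.01 and 0.05 at the 5 times, close to the 0.0 of all genes. Between 16 and 24 HPI, 1 rose and 8 fell, beside 3.59% and 6.22% of all genes. The call of Abcc5 at 1 HPI was lost without any 1 of the 6 libraries compared (-0.25 to -0.31).

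Several of these counts changed when single libraries were left out. Such a setting alters the test for every gene, and the shares of all genes under it are not given here. Whether these genes lost more calls than others was therefore not tested. The genes higher at 8 HPI were 3 without Control replicate 3 or 8HPI replicate 3 and 5 without Control replicate 1 or 2. Those higher at 16 HPI were 7 without Control replicate 3 or 16HPI replicate 1. Those lower at 24 HPI were 4 without Control replicate 1, 2 without Control replicate 2 and 3 without 24HPI replicate 1 or 3. Those lower from 16 to 24 HPI were 3 without 16HPI replicate 1 or 24HPI replicate 3. Without the replicate block, 3, 4 and 1 genes were called higher at 8, 16 and 24 HPI and none lower.

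Of the 10 regulators and partners of NRF2, 5 were higher at 8 HPI and none lower, beside 3.78% and 3.9% of all genes. At 16 HPI 5 were higher and 1 lower, beside 10.7% and 11.5% of all genes. At 24 HPI 1 was higher and 1 lower, beside 5.99% and 9.03% of all genes. The small MAF genes, whose proteins pair with NRF2 and, without it, can also occupy AREs as repressors, differed in time. Maff had 8.01 ± 1.92 CPM in control, 17.1 ± 2.03 CPM at 8 HPI and 10.9 ± 2.47 CPM at 16 HPI (mean ± SD, n = 3). It rose by 1.13 ± 0.12 on the log2 scale at 8 HPI (adjusted p = 5.91e-06 by edgeR's quasi-likelihood test) and fell by 0.68 from 8 to 16 HPI (SE 0.12, adjusted p = 0.00061), with the rise called in 14 of 14 alternatives and the fall in 13.

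Mafk had 8.33 ± 1.31 CPM in control, 10.7 ± 1.09 CPM at 8 HPI, 14.8 ± 0.954 CPM at 16 HPI and 8.08 ± 1.67 CPM at 24 HPI. It rose by 0.83 ± 0.10 at 16 HPI (adjusted p = 6.43e-06 by edgeR's quasi-likelihood test) and fell by 0.87 from 16 to 24 HPI (SE 0.10, adjusted p = 1.35e-05), both called in 14 of 14 alternatives. Its call at 8 HPI was lost without any 1 of the 6 libraries compared (0.32 to 0.41). Mafg rose by 0.21 ± 0.05 at 8 HPI and by 0.16 ± 0.05 at 16 HPI, and fell by 0.28 from 16 to 24 HPI (SE 0.05, adjusted p = 0.00124). The rises of Mafg were lost without Control replicate 3 at either time, without 8HPI replicate 3 at 8 HPI, and without Control replicate 1 or 2 or 16HPI replicate 1 or 2 at 16 HPI.

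Bach1, a repressor that competes for AREs and is released by heme, rose by 0.54 ± 0.08 at 8 HPI (adjusted p = 0.000313 by edgeR's quasi-likelihood test) and by 0.43 ± 0.08 at 16 HPI. Both were called in 14 of 14 alternatives. It fell by 0.36 from 16 to 24 HPI (SE 0.08, adjusted p = 0.00546, lost without 16HPI replicate 1 at -0.28), so its calls came at the same times as those of Hmox1, a gene it is known to repress. Sqstm1, the autophagy receptor p62 that can take KEAP1 away from NRF2, had 488 ± 16.2 CPM in control, 656 ± 31.5 CPM at 16 HPI and 617 ± 38.8 CPM at 24 HPI. It rose by 0.17 ± 0.05, 0.43 ± 0.05 and 0.34 ± 0.05 at 8, 16 and 24 HPI (adjusted p = 0.0449, 6.43e-06 and 0.000191). The call at 8 HPI was lost without any 1 of the control libraries and without 8HPI replicate 1 or 3, and the other 2 were made in 14 of 14 alternatives. Nfe2l1, which encodes the related factor NRF1, fell by 0.19 at 16 HPI and by 0.27 at 24 HPI (SE 0.05 for both, adjusted p = 0.0103 and 0.00111), and by 0.33 from 8 to 16 HPI.

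**Figure D4:**
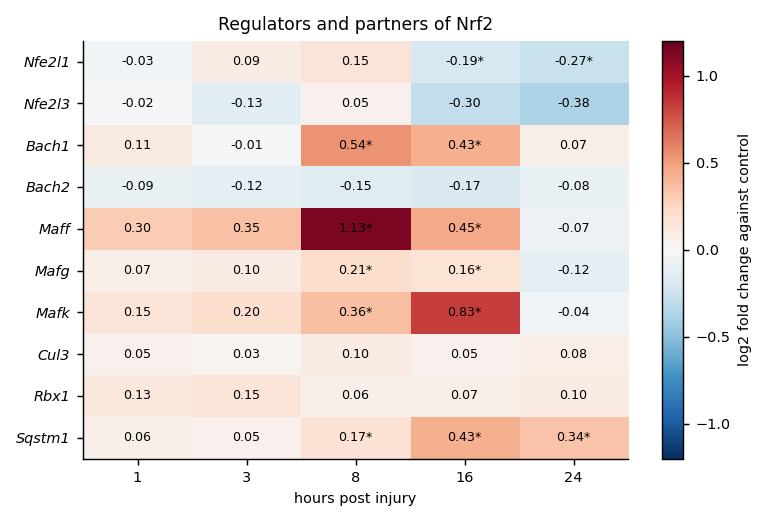
Log2 fold change against control of the 10 regulators and partners of NRF2 (rows) at 1, 3, 8, 16 and 24 HPI (columns), from red (higher) to blue (lower), with the value in each cell and an asterisk where the adjusted p was under 0.05. Maff is highest at 8 HPI (1.13), Mafk at 16 HPI (0.83), and Sqstm1 is the 1 regulator called higher at 24 HPI.

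Among the thioredoxin and peroxiredoxin genes, 2 of 11 rose at 8 and 16 HPI and 1 at 24 HPI, and none fell. Of all genes, 3.78%, 10.7% and 5.99% rose at these times. Txnip, the thioredoxin-binding protein that inhibits thioredoxin, was the gene of the list with the largest rise. It had 6.83 ± 1.45 CPM in control, 20.0 ± 6.70 CPM at 8 HPI, 19.2 ± 4.91 CPM at 16 HPI and 14.1 ± 3.28 CPM at 24 HPI. Its log2 fold changes were 1.49 ± 0.23, 1.45 ± 0.23 and 1.04 ± 0.23 (adjusted p = 0.000375, 8.09e-05 and 0.00381 by edgeR's quasi-likelihood test). Within replicates 1 to 3 they were 2.15, 1.76 and 0.55 at 8 HPI, 2.11, 1.53 and 0.75 at 16 HPI and 1.05, 1.39 and 0.66 at 24 HPI. The calls at 8 and 16 HPI were made in 14 of 14 alternatives. That at 24 HPI was made in 13, all but that without the replicate block. None of the 6 peroxiredoxin genes was called at any of these times.

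Of 23 tested genes of glutathione synthesis and use, 1 rose and 1 fell at 8 HPI, 2 rose and 1 fell at 16 HPI, and 3 rose and 2 fell at 24 HPI, beside the shares of all genes given above. Glrx, glutaredoxin 1, which removes glutathione from proteins, rose by 0.33 ± 0.08, 0.43 ± 0.08 and 0.28 ± 0.08 at 8, 16 and 24 HPI (adjusted p = 0.0121, 0.000357 and 0.0163 by edgeR's quasi-likelihood test). Gsto1, an omega class glutathione transferase, rose by 0.46 ± 0.08 at 16 HPI and by 0.40 ± 0.08 at 24 HPI (adjusted p = 0.000365 and 0.00214). The first and last of the Glrx calls were lost without Control replicate 3, the first also without 8HPI replicate 3 and the last without 24HPI replicate 2 or 3. The calls of Gsto1 were made whichever single library was left out. Mgst1 fell by 0.65 at 16 HPI (SE 0.17, adjusted p = 0.00709 by the same test) and by 0.51 at 24 HPI (SE 0.16, adjusted p = 0.0346). Its groups overlapped, and it was called in 13 and 8 of 14 alternatives. Gstt2 fell by 0.74 at 8 HPI (SE 0.22, called in 3 of 13 alternatives). Gpx8 rose by 0.80 at 24 HPI (SE 0.21, called in 9 of 13). Both were low in control, at 2.2 and 1.6 CPM.

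For the smaller groups, 10.7% of all genes rose and 11.5% fell at 16 HPI, and 5.99% rose and 9.03% fell at 24 HPI. Of the 6 genes of NADPH supply, Taldo1 rose at 16 HPI by 0.18 ± 0.05 and Pgd fell at 24 HPI by 0.24 (SE 0.06). Of the 7 heme and iron genes, Ftl1, the ferritin light chain, rose at 16 HPI by 0.19 ± 0.06 (adjusted p = 0.0208). Detoxification and export had 1 of 10 lower at 8 and 16 HPI and 1 higher and 2 lower at 24 HPI. At 8 HPI 3.9% of all genes fell. Of 3 tested genes for superoxide and peroxide removal, Cat, catalase, fell at 24 HPI by 0.21 (SE 0.05, adjusted p = 0.0108). These 4 calls each depended on single libraries, on Control replicate 3 and 16HPI replicate 1 for Taldo1 and Ftl1, Control replicates 1 and 2 as well for Ftl1, Control replicates 1 and 2 and 24HPI replicates 1 and 3 for Pgd, and Control replicate 2 and 24HPI replicate 3 for Cat.

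**Figure D5:**
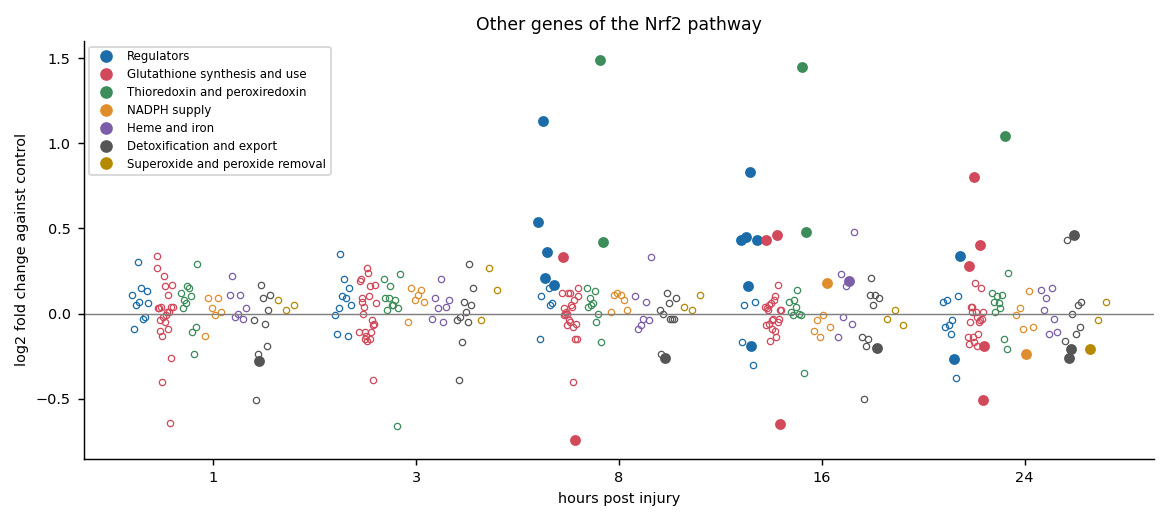
Log2 fold change against control of the 70 tested pathway genes beside the 10 (vertical axis, log2 scale) at 1, 3, 8, 16 and 24 HPI, coloured by group and placed side by side within each time. Large filled points have an adjusted p under 0.05 and small open ones do not. The highest points at 8, 16 and 24 HPI are Txnip at 1.49, 1.45 and 1.04.

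The tested genes whose pattern was most like that of each of the 5 members called against control at a time point were listed, by Pearson r of log2 CPM over the 18 libraries after the mean of each replicate number was removed, among 13770 other genes. The libraries, depths and time points are shared by all genes, so r is a description. Hmox1 was closest to Stk40 (r = 0.971), Aff1 (r = 0.969) and Sesn2 (r = 0.969), and the first of these had log2 fold changes of 0.80, 0.62 and -0.02 at 8, 16 and 24 HPI. Srxn1 was closest to Sat1 (r = 0.972), the spermidine and spermine acetyltransferase, then Heg1 (r = 0.961) and Dgkd (r = 0.96), and Heg1 had 1.42 and 1.41 at 16 and 24 HPI. Txnrd1 was closest to Gtf2a1 (r = 0.932), Ankrd28 (r = 0.926) and Zfp954 (r = 0.919). Slc7a11 was closest to Slc20a1 (r = 0.899), Naa25 (r = 0.899) and Svil (r = 0.893). For Gclc the highest r was lower, at 0.806 for Pcyt1a, 0.794 for Snx8 and 0.789 for Crcp.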

How the data were processed

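RNA was sequenced from 18 eDRG spot culture libraries, 3 in each of 6 groups. The deposited values are raw counts per gene, which the authors made by trimming reads, aligning them with STAR to mm10 and counting them on genes. The paper names featureCounts, whereas the submitters' processing notes name HTSeq, whose 5 closing entries each table holds. These took 25.2 to 33.2% of the counts and were left out of library sizes and tests. No library pair held identical counts. Strand use is not given in the sources used here.

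Gene names, places and lengths came from GENCODE vM21 (GRCm38), which matched 47224 of 47643 identifiers. Tests were run with edgeR 4.0.16 (R 4.3.3, TMM scaling, genes over 1 CPM in at least 3 libraries) and DESeq2 1.42.0 as an alternative, and figures were made in Python 3.11.15. One quasi-likelihood model with terms for time point and replicate number was fitted to all 18 libraries, two-sided. Deviations from group means correlated between libraries of the same replicate number (r from 0.484 to 0.765, 45 pairs). Between different numbers r was negative (-0.577 to -0.0423, 90 pairs). With group means removed, the second result follows from the first and is not separate support. The replicate number was taken as the pairing because of the first. The number is a label of the submitters, who corrected for batch. On simulated data for 16 HPI against control over 13771 genes, the model called 91 of 100 genes changed 1.5-fold, 100 of 100 changed 3-fold and 11 of 13571 unchanged ones. The counts were drawn with the spread estimated by the same model, and the changed genes were taken above a minimum level. Changes under 1.5-fold were not simulated, so these figures do not cover them.

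The members and lists were chosen with earlier results of these data known. Named were all 10 members, pathway genes called over 2-fold at a time or among the 4 with the lowest adjusted p there, 6 genes of the Atf4 list, and the 3 genes most like each member called against control. Slc3a2, Mafg, Gsto1, Mgst1, Gstt2, Gpx8, Taldo1, Pgd, Ftl1 and Cat were named outside this rule at some or all of the times given. So were Bach1 and Nfe2l1 at 16 HPI, Mafk and Sqstm1 at 8 HPI and Glrx at 24 HPI. All of these were named after their values were seen. Alternatives were other scalings, tests, filters and terms, the compared groups alone, rRNA and mitochondrial genes left out, and each library left out in turn. Log2 CPM had a prior count of 2. A level of 3 counts was taken as the floor of detection, and it covers counting error only. No authors' comparison columns were used. One listed sensory neuron marker and the sums that hold it are not reported here.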

Additional observations from a re-analysis of the deposited data

Results flagged for a closer look

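For 6 genes the difference from control at one late time point was not that at the next, by edgeR's quasi-likelihood test of the step itself, adjusted by the Benjamini-Hochberg method. From 8 to 16 HPI the log2 difference was 0.70 for Srxn1 and 0.24 for Txnrd1, both higher at 16 HPI, and -0.35 for Slc7a11, lower at 16 HPI. Srxn1 and Txnrd1 thus moved opposite to Slc7a11 in this step, each in 3 of 3 replicates.

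From 16 to 24 HPI it was -1.15 for Hmox1, -0.33 for Txnrd1, -0.32 for Nfe2l2, -0.27 for Slc7a11 and -0.22 for Gclc, all lower at 24 HPI in 3 of 3 replicates. Srxn1, at 0.06, was not called in this step. Of these values, those for Nfe2l2 and Gclc were lost in 4 and 8 of 14 alternatives, and those for Srxn1 and Hmox1 in none.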

How the results depend on the processing

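Of 980 fold changes of single members under an alternative, 904 were counted as unchanged. These kept their side of the threshold and, where not called, stayed within 1 SE of the main value, though some changed sign. Another 33 moved by 1 SE or more without a call in either setting. A further 11 became called, 32 lost their call and none turned a called direction. The calls of Hmox1 at 16 HPI and from 16 to 24 HPI, of Srxn1 at 16 HPI, 24 HPI and from 8 to 16 HPI, and of Txnrd1 at 16 HPI and from 16 to 24 HPI were made in 14 of 14. Nqo1, with 49 to 70 counts in the control libraries, had the fewest counts of the 10. The cause of the changes below was not tested. An alternative alters the test for every gene, and the shares of all genes called under each are not given here. The counts below therefore do not show whether these genes were more sensitive than others.

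Without the replicate block, members called higher were 0 at 8 HPI and 1 from 8 to 16 HPI, members lower were 0 at 24 HPI, 0 from 8 to 16 HPI and 2 from 16 to 24 HPI, and members over 2-fold at 8 HPI were 0. Pathway genes called higher were 3, 4 and 1 at 8, 16 and 24 HPI, 1 from 8 to 16 HPI and 0 from 16 to 24 HPI. Pathway genes called lower were 0 at 1, 8, 16 and 24 HPI, and 1 in either late step.

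With the compared groups alone, 1 member was higher at 8 HPI and 2 were lower at 24 HPI, and pathway genes were 3 higher and 1 lower at 8 HPI, 1 higher at 1 HPI and 2 higher from 16 to 24 HPI. With upper-quartile factors, 2 members were higher at 24 HPI and 1 of them over 2-fold, 0 pathway genes were lower at 1 HPI and 3 were lower from 8 to 16 HPI. With the DESeq2 Wald test, 1 pathway gene was lower at 8 HPI, 1 higher at 3 HPI and 0 higher from 16 to 24 HPI. With at least 10 counts as the filter, 1 was lower at 8 HPI and 3 from 8 to 16 HPI. With over 1 CPM in all 18 libraries, 0 were lower at 1 HPI, 1 was lower at 8 HPI and 0 were higher from 16 to 24 HPI. DESeq2's size factors, and leaving out rRNA and mitochondrial genes, moved no such count by over 1.5 times.

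Leaving out 1 library at a time gave these ranges. Members higher were 0 to 1 at 3 HPI and 1 to 2 at 8 HPI, and members lower were 0 to 1 at 16 HPI and 2 to 5 from 16 to 24 HPI, with 2 without 24HPI replicate 3 and 3 without 16HPI replicate 3. Members over 2-fold were 0 to 1 at each of 8, 16 and 24 HPI. Pathway genes higher were 0 to 1 at 3 HPI, 3 to 6 at 8 HPI, 7 to 10 at 16 HPI and 0 to 1 from 16 to 24 HPI. Pathway genes lower were 0 at 1 HPI, 0 to 1 at 8 HPI, 2 to 6 at 24 HPI, 2 to 5 from 8 to 16 HPI and 3 to 7 from 16 to 24 HPI. The promoter alternative, an ARE core 1 base longer, held for the second Txnrd1 start alone among the 4 windows with a core.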
